A study of Mus musculus with 2 samples.

Results

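The mitochondrial chaperones and proteases described here are 10 genes, chosen by name: the chaperone genes *Hspd1*, *Hspe1*, *Hspa9*, *Dnaja3* and *Trap1*, and the protease genes *Clpp*, *Clpx*, *Htra2*, *Spg7* and *Afg3l2*. All 10 were on the array, among 37074 gene names, with 20 probes in all. RNA came from primary hepatocytes harvested 24 h after seeding, from *Drp1*LiKO mice (Alb-Cre Tg/+, Drp1 flox/flox) and from control mice (Drp1 flox/flox littermates without Cre, labeled as wild type), both of C57BL/6 background. The floxed allele was therefore shared by both groups, and Cre was driven by the albumin promoter, which is active in hepatocytes and not in the macrophages, endothelial cells or stellate cells that a hepatocyte preparation can carry. The methods give an age and sex (young adult males) for purchased C57BL/6J mice, and those of the mice that gave these hepatocytes, and the number of mice behind each culture, were not given in the sources used here. Each genotype was hybridized once, to a 1-color Agilent array of 60-base probes, so no replicate existed, no test was made, and each difference describes these 2 arrays.

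Most mitochondrial proteins are made in the cytosol and threaded, unfolded, into the mitochondrion, where mortalin (*Hspa9*) pulls them in and the HSP60 and HSP10 chaperonin (*Hspd1*, *Hspe1*) folds them. Proteins that fail to fold are degraded by proteases of the matrix (ClpXP, from *Clpx* and *Clpp*), of the inner membrane (the m-AAA protease, from *Afg3l2* and *Spg7*) and of the intermembrane space (HTRA2). When misfolded protein accumulates in the matrix, cells can induce nuclear genes for these chaperones and proteases, a program known as the mitochondrial unfolded protein response. DRP1 is the dynamin-like GTPase that divides mitochondria.

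None of the 10 genes differed by 1.5-fold or more between *Drp1*LiKO and control hepatocytes. At the brightest probe of each gene, 6 genes were slightly higher and 4 slightly lower in *Drp1*LiKO cells, with log2 ratios (*Drp1*LiKO minus control) from -0.20 for *Htra2* to 0.12 for *Hspa9* and a median of 0.043. In such whole cultures fewer cells of a type and less RNA per cell cannot be told apart. The count was 0 of 10 genes at 1.5-fold in either direction, while 10.3% of the 20165 genes compared were at least 1.5-fold higher and 10.3% at least 1.5-fold lower. The same 0 of 10 held at a Z score of 2, the limit named in the study's text, which 3.50% of genes passed as higher and 2.81% as lower. The Z score is the log2 ratio less the mean ratio of all probes compared, divided by their SD of 0.65, so that the limit lay at log2 ratios of 1.30 and -1.31. The Z scores of the 10 genes lay between -0.29 and 0.66 over all their probes. The targeted gene, listed as *Dnm1l*, read 2602 in the control and 1217 in the *Drp1*LiKO culture at its brightest probe, for a log2 ratio of -1.28. Its Z score there was -1.95, so the targeted gene itself fell short of that limit. Its other probe, near background, read 22.8 and 20.9.

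Log2 ratios were taken after the 75th percentile of each array, which was 313 for the control and 356 for the *Drp1*LiKO culture, was set equal. That step lowered every ratio by 0.18, so 17 of the 19 chaperone and protease probes compared were brighter on the *Drp1*LiKO array before it and 10 after it. The median of all genes compared was then -0.047. At signals within the range of the 10 genes, which held 6014 genes, the median ratio was -0.039, with an SD of 0.40, and 8.85% of genes were past 1.5-fold in either direction. The SD of the 10 members' ratios was 0.12.

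**Figure D1:**
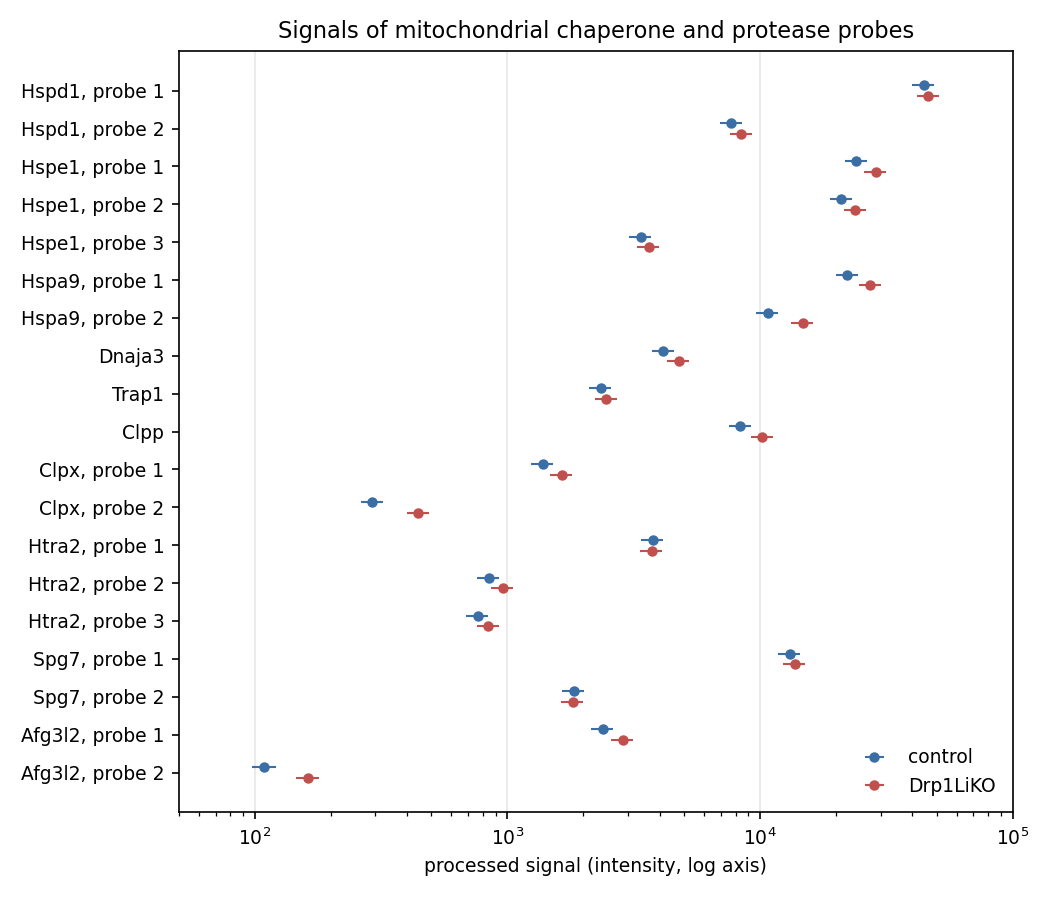
Processed signal (intensity, log axis) of the 19 probes well above background, in control (blue) and *Drp1*LiKO (red) hepatocytes, 1 array each; bars are the error the scanner software gives for the spot. Within each gene probes are numbered from the brightest, and the red and blue points lie close together at signals from 109 to 46393.

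The measurement error of 1 spot was read in 2 ways. The noise between spots was the SD among probes printed 10 times, taken from the 30 such probes nearest in signal and combined over both arrays, and it was 0.060 to 0.12 on the log2 scale for the members. The scanner software gives a wider error, which for a ratio of the members came to 0.20 to 0.21. Neither holds the difference between cultures or animals. Of the 19 probes, 16 had a ratio within the scanner error and 14 were within 2 times the noise between spots. Beyond the latter, 3 were higher and 2 lower, the lower ones being probes of *Htra2* and *Spg7*. The 3 probes beyond the scanner error, all higher in *Drp1*LiKO cells, were the dimmer probes of *Hspa9*, *Clpx* and *Afg3l2*. No member spot was saturated or marked as an outlier (0 of each).

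**Figure D2:**
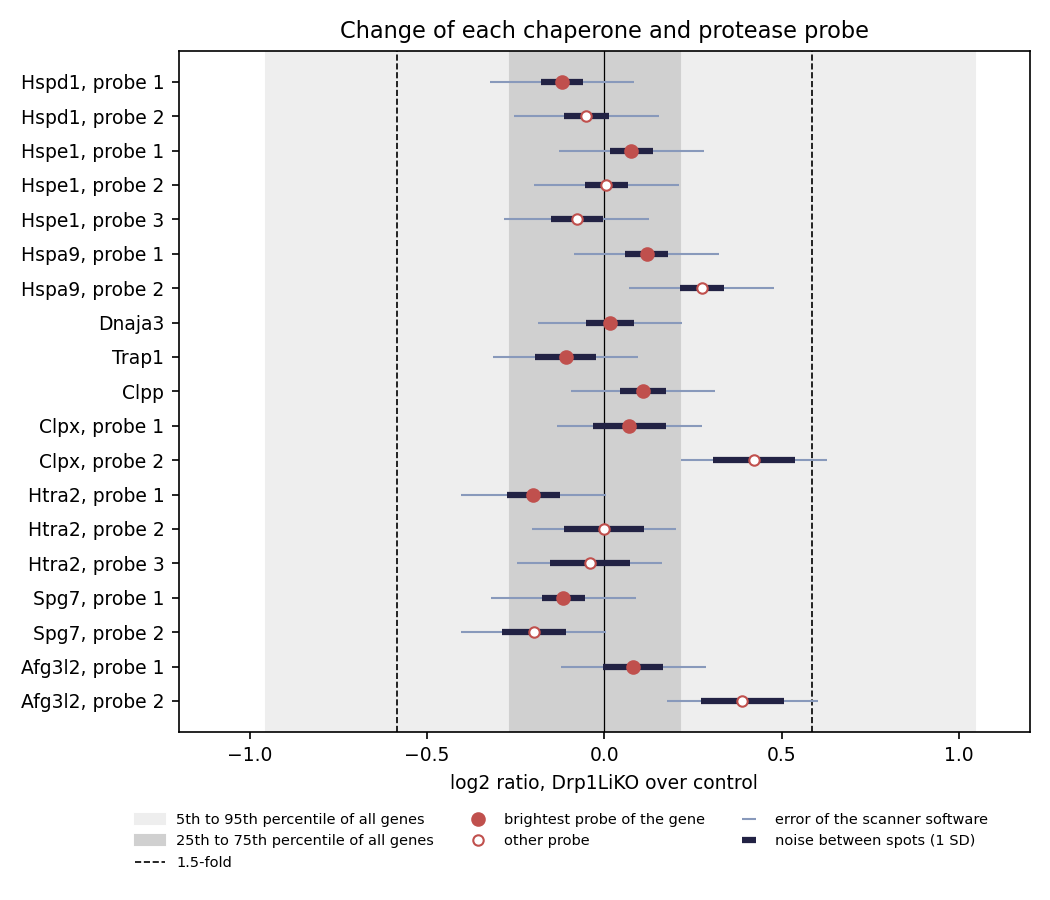
Log2 ratio (*Drp1*LiKO over control) of each of the 19 probes; thick bars are the noise between spots (1 SD), thin bars the scanner error, grey bands the percentiles of all 20165 genes and dashed lines 1.5-fold. All probes lie inside the dashed lines, and the 3 whose thin bar does not reach 0 are probes other than the brightest of *Hspa9*, *Clpx* and *Afg3l2*.

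*Hspd1* encodes HSP60, the subunit of the chaperonin ring. The brighter of its probes (mm9 chromosome 1, 55134829 to 55134888) read 44411 in the control and 46393 in the *Drp1*LiKO culture, for a log2 ratio of -0.12 and a noise between spots of 0.060. Its other probe read 7683 and 8420, a ratio of -0.050. Both probes of *Hspd1* were thus lower after scaling, by less than 2 times the noise. In the deposited normalized values they were at -0.031 and, for the dimmer probe, -0.35. *Hspe1* encodes HSP10, the lid of that ring, and has 3 probes, the brightest at 55148026 to 55148085 of the same chromosome. They read 24028 and 28754, 20947 and 23877, and 3365 and 3618 in the control and the *Drp1*LiKO culture, with ratios of 0.076, 0.0062 and -0.078. The probes of *Hspe1* thus lay on both sides of 0, and none went beyond 2 times its noise.

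A 60-base probe whose coordinates in mm9 span far more than its length joins exons of the spliced transcript, and the sequences of 4 such probes, spanning 148 to 804 bases, are given because they read spliced RNA of the chaperonin pair, of *Trap1* and of *Htra2*. Each has at least 1 forward reading frame without a stop codon, and each is written as printed on the array, 5′ to 3′.
Hspd1, chr1:55135257-55135404, minus strand: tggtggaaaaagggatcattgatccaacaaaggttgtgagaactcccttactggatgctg
Hspe1, chr1:55147620-55147946, plus strand: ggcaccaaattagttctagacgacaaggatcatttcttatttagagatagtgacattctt
Trap1, chr16:4044692-4045495, minus strand: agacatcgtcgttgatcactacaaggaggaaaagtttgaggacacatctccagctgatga
Htra2, chr6:83003033-83003350, minus strand: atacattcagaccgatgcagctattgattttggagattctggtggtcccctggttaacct
At these junction probes the log2 ratios were -0.050 for *Hspd1*, -0.078 for *Hspe1*, -0.11 for *Trap1* and -0.041 for *Htra2*. Each was smaller than 2 times its noise between spots. This does not hold for every exon-joining member probe. That of *Hspa9*, which spans 819 bases and is not printed here, had a ratio of 0.27 with a noise of 0.062.

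*Hspd1* and *Hspe1* lie head to head and share a promoter region. In the RefSeq table of GRCm38.p6, *Hspe1* starts at 55088148 of chromosome 1 on the plus strand. *Hspd1* has 2 starts on the minus strand. The start at 55087932 lies 216 bases before that of *Hspe1*, head to head with it. The start at 55088243 lies 95 bases past that of *Hspe1*, so from there the transcripts of the 2 genes overlap. The window of *Hspe1*, from 250 bases before its start to 50 after, holds 3 overlapping matches to the heat shock element (GAANNTTC or TTCNNGAA, the sites of heat shock factors), the first of them 89 bases before the start, and 1 match to TGCAAT, a core bound by C/EBP and CHOP family factors, 199 bases before it. Both stretches are printed in the direction of *Hspe1*, with the matches in capitals, because they are the parts of this promoter tied by name to stress induction.
Heat shock element, chr1:55088053-55088082: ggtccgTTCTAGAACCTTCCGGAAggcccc
CHOP core, chr1:55087937-55087966: acgccggggcccTGCAATctgcatgcggcg
The 8 windows of 7 members were read, 2 of them of *Hspd1*, and those of *Hspa9*, *Afg3l2* and *Htra2* were left out of these counts. A heat shock element was found for 3 of the 7 genes (*Hspd1*, *Hspe1* and *Clpp*), in 3 of the 8 windows. Of 32851 windows of the same length, 15.1% held one. TGCAAT was found for *Hspd1* and *Hspe1*, in 2 of 8 windows, against 8.40%. The window of the *Hspd1* start at 55088243 held neither of these motifs. The C/EBP-ATF element TGATGNAA and the NRF2 motif TGACNNNGC were found in 0 of 8 windows, against 3.97% and 12.4% of windows. The NRF1 motif GCGCATGC was found in *Clpx* alone, against 2.71% of windows. The GC box GGGCGG was found for 5 of 7 genes, in 6 of 8 windows, against 35.7%. All motifs were read on both strands, and the matches of *Hspd1* to both stress motifs and those of *Hspe1* are the same bases, while the heat shock element of *Clpp* lies just after its start. The log2 ratios of the genes with a heat shock element, at the brightest probe, were -0.12, 0.076 and 0.11.

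The remaining matrix chaperones and the ClpXP protease also lay close to 0 at their brightest probes. *Trap1* encodes the mitochondrial member of the HSP90 family, and its single probe read 2342 in the control and 2465 in the *Drp1*LiKO culture, for a log2 ratio of -0.11 and a noise of 0.085. *Dnaja3* encodes a J-domain partner of mortalin. Its probe for NM_023646, on chromosome 16 of mm9 from 4707533 to 4707592, read 4147 and 4759, a ratio of 0.016. A second probe, designed for NM_001135112, was not well above background on either array, at 4.73 and 10.8, and gave no ratio. *Clpp* encodes the proteolytic barrel of ClpXP, and its single probe (chromosome 17, 57135532 to 57135592) read 8348 and 10218, a ratio of 0.11 with a noise of 0.064. *Clpx* encodes the unfoldase that feeds this barrel. Its brighter probe (chromosome 9, 65177803 to 65177862) read 1378 and 1642, a ratio of 0.071, and its dimmer probe 292 and 444, a ratio of 0.42 with a noise of 0.12. The dimmer probe of *Clpx* had the highest ratio of all member probes and was still short of 1.5-fold (0.58 on this scale).

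*Htra2* encodes a serine protease of the intermembrane space, which can also promote apoptosis once it leaves the mitochondrion. The brightest of its probes (mm9 chromosome 6, 83001362 to 83001421) read 3767 in the control and 3722 in the *Drp1*LiKO culture, for a log2 ratio of -0.20 and a noise of 0.074. The other *Htra2* probes read 844 and 957, and 763 and 841, with ratios of -0.00062 and -0.041. The *Htra2* probes other than the brightest were thus within their noise. In the deposited normalized values all 3 were below 0, at -0.18 for the brightest and -0.048 and -0.36 for the others. *Spg7* encodes paraplegin, which joins AFG3L2 in the m-AAA protease. Its probes (mm9 chromosome 8, the brighter at 125621576 to 125621635) read 13130 and 13756, and 1831 and 1810, with ratios of -0.12 and -0.20. Both probes of *Spg7* were thus lower after scaling, though they were 0.034 and 0.11 in the deposited normalized values.

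*Hspa9* encodes mortalin, the HSP70 of the matrix and the motor of protein import. The brighter of its probes (mm9 chromosome 18, 35097674 to 35097733) read 22141 in the control and 27297 in the *Drp1*LiKO culture, for a log2 ratio of 0.12 and a noise of 0.061. Its second probe, which joins exons, read 10752 and 14764, a ratio of 0.27 with a noise of 0.062. Both probes of *Hspa9* were higher in *Drp1*LiKO cells, the second by more than the scanner error of 0.20. In the deposited normalized values these probes parted, at -0.13 and 0.41. *Afg3l2* encodes the other m-AAA subunit, which can also assemble alone. Its brighter probe (same chromosome, 67564419 to 67564478) read 2385 and 2864, a ratio of 0.082, and the other, from 67599875 to 67599934, read 109 and 162, a ratio of 0.39 with a noise of 0.12. The subunits of the m-AAA protease thus lay on either side of 0, *Afg3l2* above and *Spg7* below, but both were above 0 in the deposited normalized values.

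Probes of the same gene did not always give the same ratio. Among the 7 members with more than 1 probe compared, the gap between the highest and lowest ratio had a median of 0.16 and reached 0.35 for *Clpx* and 0.31 for *Afg3l2*, against a median gap of 0.17 over 4096 RefSeq transcripts with several probes well above background on both arrays. By position in the transcript, the most upstream probe had a higher ratio than the most downstream one in 5 of these 7 genes, the exceptions being *Hspe1* and *Spg7*, by a median of 0.16. Over all 4096 transcripts the upstream probe was higher in 57.2%, by a median of 0.041. The part of this in the ratios of *Clpx*, *Afg3l2* and *Hspa9* was not tested.

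**Figure D3:**
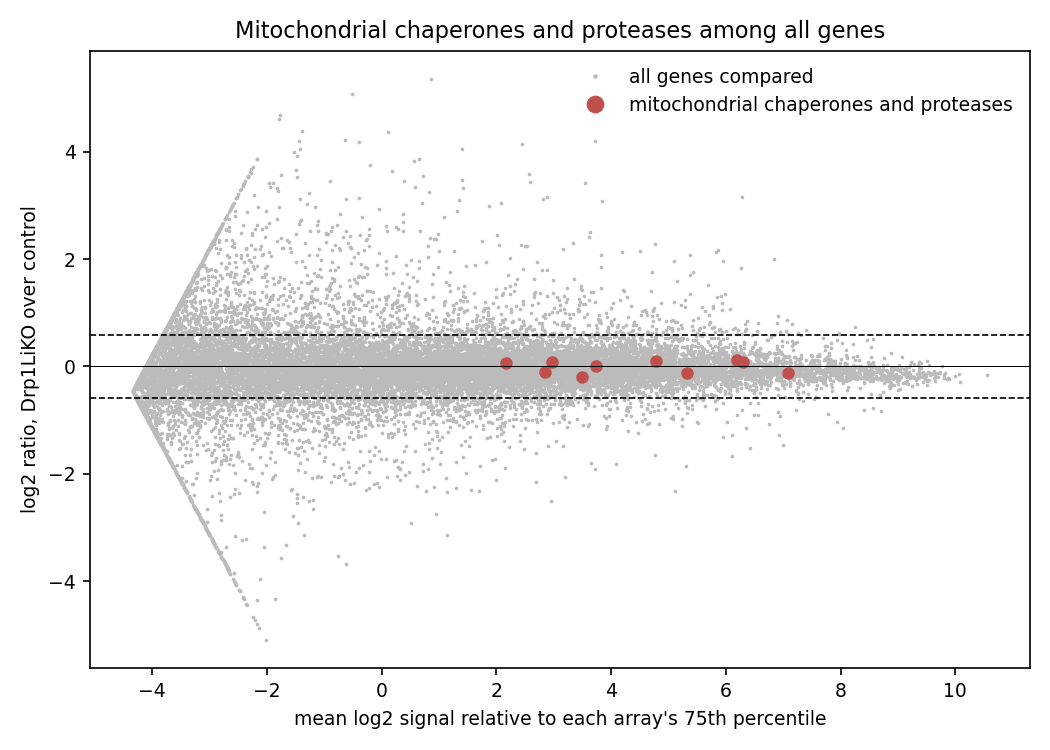
Log2 ratio (*Drp1*LiKO over control) against mean log2 signal relative to the 75th percentile of each array, for all 20165 genes compared (grey) and the 10 mitochondrial chaperone and protease genes (red), each by its brightest probe; dashed lines are 1.5-fold. The red points lie at signals above the 75th percentile, within 0.20 of 0, where grey points are also less spread than at low signal.

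Grouped by role, the 5 chaperone genes had a median log2 ratio of 0.016, from -0.12 to 0.12, and the 5 protease genes one of 0.071, from -0.20 to 0.11. Neither group had a gene past 1.5-fold. The signals of the brightest probes of all 10 genes, scaled to the control array, summed to 126077 in control and 124999 in *Drp1*LiKO cells.

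Other genes of mitochondrial protein quality control were read from lists. Of 15 other proteases and peptidases of the mitochondrion, all were detected and 0 were past 1.5-fold, with a median log2 ratio of 0.076. *Lonp1*, the main ATP-dependent protease of the matrix and a usual reporter of the mitochondrial unfolded protein response, read 42995 and 47462, a ratio of -0.040. *Yme1l1*, the i-AAA protease, had a ratio of -0.11. The highest were *Xpnpep3*, an aminopeptidase, at 0.45, *Pitrm1*, which degrades presequences, at 0.28, and *Immp2l*, an inner membrane peptidase, at 0.26. The lowest were *Oma1*, the stress-activated protease that cleaves OPA1, at -0.38, *Parl*, the rhomboid protease that cleaves PINK1, at -0.26, and *Lactb* at -0.25.

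Of 19 other mitochondrial chaperones and scaffolds, 15 had ratios below 0, with a median of -0.086, and 2 were more than 1.5-fold higher, a share of 10.5% beside the 10.3% of all genes. Both work with the HSP70 system of the matrix. *Grpel2*, a nucleotide exchange factor of mortalin, read 3743 in the control and 7662 in the *Drp1*LiKO culture at its single probe, for a log2 ratio of 0.85. Its paralog *Grpel1* read 18687 and 20461, a ratio of -0.052. *Hscb*, a J-domain protein of iron-sulfur cluster assembly, read 1132 and 2279, a ratio of 0.83, and 406 and 711 at its other probe, a ratio of 0.63. In the deposited normalized values the brighter *Hscb* probe was at 0.50, short of 1.5-fold. *Grpel2* and *Hscb* were therefore higher while the chaperone they serve, *Hspa9*, had ratios of 0.12 and 0.27. The next was *Timm8b*, a small chaperone of the intermembrane space, at 0.19. The lowest were *Dnajc11* at -0.25, *Dnlz*, which keeps mortalin soluble, at -0.24 and *Timm9* at -0.22. Of 17 genes of the preprotein import machinery, 8 were above 0 and 9 below, with a median of -0.031 and 0 past 1.5-fold. They reached from *Timm22*, *Tomm40* and *Timm17b* at -0.34, -0.33 and -0.24 to *Timm44*, *Tomm20* and *Tomm5* at 0.23, 0.23 and 0.24.

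**Figure D4:**
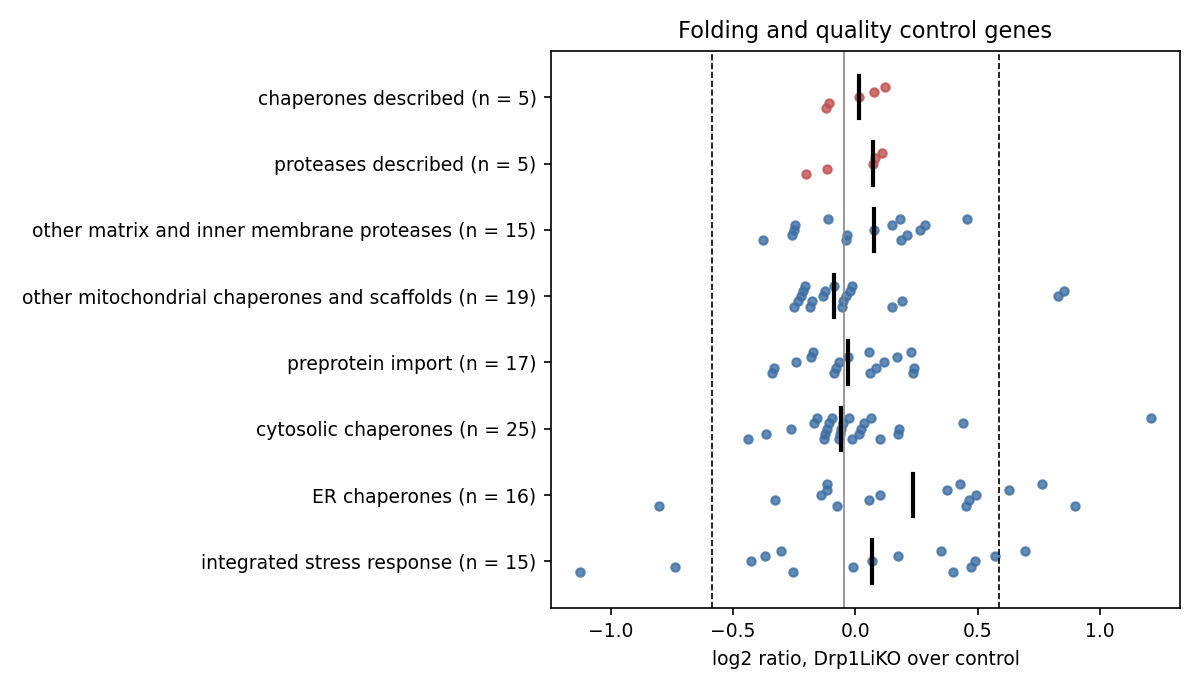
Log2 ratio (*Drp1*LiKO over control) of each detected gene, by its brightest probe, in the 10 mitochondrial chaperone and protease genes (red) and in other lists (blue); black bars are medians, the grey line the median of all genes and dashed lines 1.5-fold. The mitochondrial lists stay inside the dashed lines except for *Grpel2* and *Hscb*, and the ER and stress response lists spread wider.

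Chaperones of other compartments gave the comparison outside mitochondria. Of 25 cytosolic chaperone genes, 1 was more than 1.5-fold higher, a share of 4% beside 10.3% of all genes, and the median log2 ratio was -0.060. That gene was *Hspa1a*, an inducible HSP70, which read 174 and 457, a ratio of 1.21, while its near-identical copy *Hspa1b* read 409 and 472, a ratio of 0.023, so these probes are uncertain. *Hspb8* followed at 0.44 and the chaperonin subunit *Cct4* at 0.18, and the lowest were *Stip1* at -0.44, *Hspb1* at -0.37 and *Hsf1*, the heat shock factor, at -0.26. Of 16 ER chaperone genes, 3 were more than 1.5-fold higher and 1 lower, shares of 18.8% and 6.25% beside 10.3% each way over all genes. Their median was 0.24, and 0.079 with normexp background correction. They were *Sdf2l1* at 0.90, *Dnajb9* at 0.76 and *Creld2* at 0.63, against *Dnajc3*, the inhibitor of eIF2α kinases, at -0.80. *Hspa5*, the HSP70 of the ER, had a ratio of 0.056. *Dnajb11* at -0.33 and *Pdia3* at -0.14 were the next lowest. Of 15 genes of the integrated stress response, 1 was more than 1.5-fold higher and 2 lower, with a median of 0.067. These shares were 6.67% and 13.3%, beside 10.3% each way over all genes. The highest were the secreted factor *Gdf15* at 0.69, *Ppp1r15a* at 0.57 and *Vldlr* at 0.49, and the lowest *Fgf21* at -1.13, *Psat1* at -0.74 and *Phgdh*, an enzyme of serine synthesis, at -0.43. The transcription factors tied to the mitochondrial unfolded protein response differed, with *Atf5* at -0.0088, *Atf4* at 0.35 and *Ddit3*, which encodes CHOP, at 0.40. No gene of these lists was past a Z score of 2.

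Most markers of macrophages, endothelial cells and stellate cells were higher in the *Drp1*LiKO culture. Of 12 detected Kupffer cell and macrophage markers, 11 were at least 1.5-fold higher, of 11 endothelial markers 10, and of 9 stellate cell markers 6. These shares were 91.7%, 90.9% and 66.7%, beside 10.3% of all genes. Their summed signals, scaled to the control array, were 11121 and 25464, 4565 and 8448, and 22002 and 26572. The median log2 ratios of these macrophage, endothelial and stellate lists were 2.42, 1.47 and 1.04. They ranged from 0.21 to 3.45, from 0.27 to 2.63 and from -0.16 to 4.06. The brightest markers were *Cd14*, *Egfl7* and *Acta2*, with log2 ratios of 0.21, 0.70 and 0.018. *Acta2* alone read 21437 in the control, most of the stellate sum. *Timd4*, *Lrat* and the cholangiocyte marker *Epcam* were not well above background on either array, nor were 4 of 7 leukocyte markers. The ratios of 2, 3 and 4 of these macrophage, endothelial and stellate markers are lower bounds, since the control was not well above background. Those markers were compared only because the *Drp1*LiKO array was well above background. With both arrays required to be so, 9 macrophage, 8 endothelial and 4 stellate markers were at least 1.5-fold higher, beside 1497 of 17759 genes. Cholangiocyte markers had ratios from -0.46 to at least 0.59 over 4 genes, the brightest being *Spp1*, and leukocyte markers from -0.37 to at least 1.90 over 3, the brightest being *Ptprc*. The highest of each (*Krt7* and *Ly6g*) was again not well above background in the control. The label hepatocyte fits the brightest marker signals, with *Serpina1a*, the brightest marker, at 338486 and 339334 and *Alb* at 219613 and 266703. Some other hepatocyte markers were dim, with *Tat* at 151 and 416, *Cps1* at 65.4 and 116 and *Pck1* at 11.7 and 40.2. *Ahsg* was bright, at 12810 and 51568. Its log2 ratio of 1.83 made it the only hepatocyte marker past a Z score of 2. Of 15 hepatocyte markers 4 (*Ahsg*, *Tat*, *Pck1* and *Cps1*) were at least 1.5-fold higher, a share of 26.7% beside 10.3% of all genes. The range was from -0.40 to 1.83. The ratio of *Pck1* among them is a lower bound, as it was not well above background in the control. The part of other cell types in the ratios of the 10 genes was not tested.

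Processing changed the small values but moved no member past 1.5-fold. In the 10 settings tried besides the one reported, the 10 genes held 0 ratios past 1.5-fold and 0 past a Z score of 2. In each, 6 were above 0 and 4 below, with medians from 0.011 to 0.084. With either filter on dim probes or dim values left as measured the 10 ratios could not change, as every brightest member probe stood well above background. The robust Z score changes no ratio, and retained outlier spots hardly moved any, since no member spot was marked. The genes above 0 were not always the same. *Hspa9* went to -0.13 and *Spg7* to 0.034 in the deposited normalized values, whose *Drp1*LiKO column did not keep the order of that array's signals and may not come from the same array. All other members kept their sign in every setting.

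**Figure D5:**
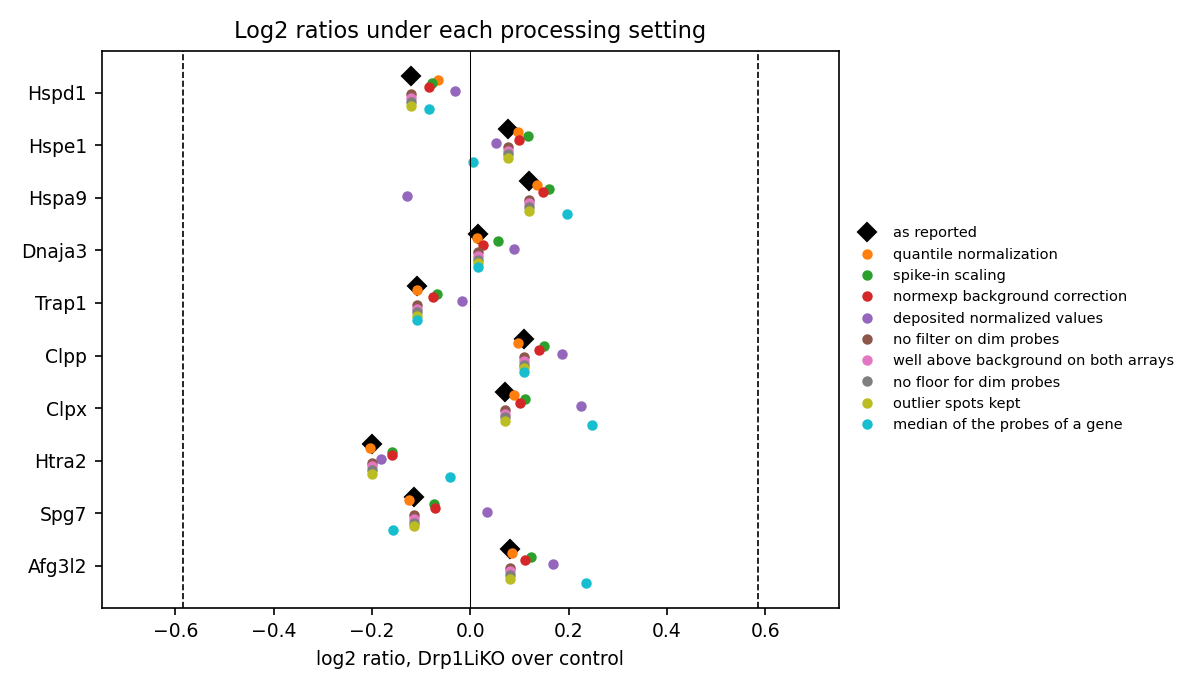
Log2 ratio (*Drp1*LiKO over control) of each of the 10 genes as reported (black diamonds) and under 9 other settings (colored points), with dashed lines at 1.5-fold. All points lie between -0.20 and 0.25, and *Hspa9* and *Spg7* cross 0 in the deposited normalized values.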

How the data were processed

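RNA of 1 control and 1 *Drp1*LiKO culture was measured. For each array the authors deposited Agilent Feature Extraction files holding spot intensities (version 9.5.1.1 per the labels, 10.7.1.1 per the file headers), background-subtracted within the array and not normalized between arrays, with coordinates in mm9. They also deposited normalized intensities, by a method not given in the sources used here. Their columns have a median of 19.1 each, are linear and uncentered, and rank like the arrays with Spearman coefficients of 1.000 (control) and 0.958 (*Drp1*LiKO) across probes, so they served as an alternative only.

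From processed signals, control spots (leaving 56605 probes) and outlier spots were dropped, the log2 values of a probe's spots were averaged, and each array's 75th percentile was subtracted. Kept were 30275 probes that stood well above background on either array, covering 27259 and 29464 detected probes in control and *Drp1*LiKO cells. A dimmer signal was raised to the lowest detected one, 18.2 and 15.0. A gene was its brightest probe. A single array for each genotype allowed no test. The number of arrays limits the precision.

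The members and lists were chosen with earlier results of these data known. Named were all members, *Dnm1l*, the 3 highest and 3 lowest genes of each list, any gene of those lists past a Z score of 2, and the brightest marker of each cell type. The other markers named (*Ahsg*, *Alb*, *Tat*, *Cps1*, *Pck1*, *Krt7*, *Ly6g*, *Timd4*, *Lrat* and *Epcam*) fall outside that rule. Markers past a Z score of 2 were not all named. *Lonp1*, *Yme1l1*, *Grpel1*, *Hspa1b*, *Hspa5*, *Atf4*, *Atf5* and *Ddit3* were named for their role, after their values were seen. Alternatives were quantile normalization, scaling to 7 spike-in probes, normexp background correction (offset 50), the deposited values, a looser and a stricter filter on dim probes, dim values left as measured, outlier spots retained, the median of a gene's probes and a robust Z score. Steps were tested on simulated data. Promoters are those of RefSeq for GRCm38.p6. Python 3.11.15 with pandas 2.3.3, and R 4.3.3 with limma 3.58.1 were used.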

Additional observations from a re-analysis of the deposited data

How the results depend on the processing

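No paired analysis was possible because each genotype has 1 array and no result comes from a test. For the same reason no array could be left out. Over 9 settings, a member's ratio moved by more than its noise between spots in 13 of 90 cases. Of these, 8 were in the deposited normalized values, for 8 of the 10 genes, and 5 with the median of a gene's probes. Both filters on dim probes, dim values left as measured and retained outlier spots gave 0 moves. Those cases could not show a move, as the brightest member probes stood well above background with no marked spot. The *Drp1*LiKO column of the deposited values ranks with that array at 0.958 only, so it may hold another array or another processing, which was not settled. With that median *Clpx* went from 0.071 to 0.25, *Afg3l2* from 0.082 to 0.24 and *Htra2* from -0.20 to -0.041. Medians of the 6 lists of folding, import and stress genes moved by no more than 0.066, the median noise of the 10 genes, with 2 exceptions. Cytosolic chaperones went from -0.060 to 0.017 in the deposited normalized values. ER chaperones went from 0.24 to 0.079 with normexp background correction. *Grpel2* lay between 0.85 and 0.94 and *Hscb* between 0.50, in the deposited values, where it is no longer past 1.5-fold, and 0.87. Counts of markers at least 1.5-fold higher, recomputed under settings applied to them after seeing the data, ranged from 9 to 11 for macrophages, 8 to 11 for endothelial, 4 to 8 for stellate and 2 to 5 for hepatocyte markers, and from 0 to 2 and 0 to 1 for cholangiocyte and leukocyte markers. The robust Z score placed 1722 genes higher and 1443 lower past its limit, against 705 and 566, and none of the 10 genes. With every probe kept, however dim, 1355 genes lay above and 597 below a Z score of 2, the median over all genes going from -0.047 to -0.47, and with normexp 1145 and 1143 were past 1.5-fold, against 2085 and 2067.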
